A study of Mus musculus with 2 samples.

Results

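The glycolysis and glucose uptake genes described here are 32 genes chosen by name from the 27998 genes of the deposited list. They comprise the enzymes from hexokinase to lactate dehydrogenase, the glucose transporters Slc2a1, Slc2a3 and Slc2a4, the monocarboxylate transporters Slc16a1 and Slc16a3, 3 genes of the bifunctional enzyme that sets fructose-2,6-bisphosphate, and the pyruvate dehydrogenase subunit Pdha1 with 3 of its kinases. All 32 were in the count matrices of both libraries. Their unique molecular identifier (UMI) counts were summed over the cells of each cell type label and each day, and are given as CPM, the gene's counts scaled to one fixed total for every label and day.

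Glycolysis splits glucose into pyruvate in the cytosol, and lactate dehydrogenase then regenerates NAD+ by making lactate, which leaves the cell through monocarboxylate transporters. Vertebrates carry several isozymes for many of these steps. Muscle fibres are known for a set of their own (muscle phosphofructokinase, beta-enolase and the muscle phosphoglycerate mutase), while blood cells, neurons and proliferating cells use others. The muscle isozymes are switched on during the terminal differentiation of myoblasts, and resting, proliferating and inflammatory cells differ in how much glucose transporter and lactate exporter they make.

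The data were 2 single-cell RNA-seq libraries (10x Chromium, v3 chemistry) from the tibialis anterior of C57Bl/6 mice (C57BL/6J in the study's methods), 1 library at day 2 and 1 at day 7 after injury by notexin, a snake venom phospholipase that kills muscle fibres and spares their stem cells. The study treated each animal as its own experiment, so each library came from 1 mouse. No uninjured muscle was included here, and day and library cannot be told apart in any comparison below. Both sets of sample labels gave an age of 7 months and female sex, whereas the deposited cell table gave 4 months for day 2, 7 months for day 7 and male sex. Xist had 5 counts at day 2 and 1 at day 7, and 4 Y-linked genes together had 6575 and 4856. The day 2 matrix held 4836 called barcodes and 41123913 counts in total, and that of day 7 held 4889 and 32356088. The authors' labels and the limits on cells left 3178 cells at day 2 (median 9058.5 counts per cell) and 3196 at day 7 (median 6583), in 25 labels. The libraries shared 4 called barcode sequences, 1 of them among the kept cells.

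The labels were checked against fixed markers. At day 2 the MuSCs label (muscle stem cells) held 21 cells, of which 5 carried 3 or more counts of myogenic markers, whereas at day 7 it was 135 of 137. Only 1 of 10 cells labelled Neutrophils at day 7 carried neutrophil markers, against 680 of 708 at day 2, and Myoblasts/Progenitors had 1 cell at day 2. None of those 3 labels had 50 or more cells in both libraries, so none was compared between days. Of the cells labelled T Cells, 10 of 50 at day 2 and 202 of 293 at day 7 carried T or NK markers, and 17 of 50 at day 2 carried basophil or mast cell markers. Of the cells labelled Smooth Muscle, 209 of 304 and 152 of 232 carried smooth muscle or pericyte markers, and 295 and 202 carried endothelial markers. Names such as T Cells and Smooth Muscle below are thus the authors' labels. In the Smooth Muscle barcodes with smooth muscle or pericyte markers, Eno1, Eno3, Pfkm, Ldhb and Slc2a4 were still called higher and Gapdh, Slc2a1, Slc16a1 and Slc16a3 lower, while Hk2 (log2 1.84), Pgam2 (log2 3.48) and Slc2a3 (log2 -0.98) were no longer called. In T Cells without the barcodes carrying basophil or mast cell markers, Eno1 (log2 1.81), Eno3 and Slc16a3 (log2 -1.84) were still called, Hk2 (log2 -0.97), Hk3 (log2 -2.29), Slc2a1 (log2 -0.98) and Pgk1 were not, and Pgam1 and Pdk1 were called lower. The 5 monocyte and macrophage labels compared between days changed in H2-Ab1, a major histocompatibility class II gene of antigen-presenting cells, which went from 219 to 11754 CPM in Monocyte (Inflammatory), from 4178 to 12725 in M2 Macro. (Cx3cr1_hi) and from 508 to 6872 in M1 Macro., and was at 9532 and 9630 in Dendritic. The other 5 dendritic markers stayed low there: Flt3 was at most 12.6 CPM and Cd209a at most 32.3 in those 5 labels, compared with 241 and 414 in Dendritic at day 7. What part this change of the labels has in the day ratios was not tested. Between days, 11 labels with 50 or more cells in each library were compared.

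Of the 32 genes, 30 had a promoter window in the RefSeq table (GRCm38.p6), with 47 windows of 250 bases upstream of an annotated start. Slc2a3 and Slc2a4 had none. The hypoxia response element core, searched as ACGTG or GCGTG on both strands (ACGTG also lies within the E-box CACGTG), occurred in 34 of the 47 windows (72.3%), compared with 38.6% of all 32851 windows of the same length in the table. By gene, 26 of the 30 had it in a window. Windows of the same gene can overlap and count a match again, as in Eno1, Aldoa and Pfkm. Both cores hold the pair CG, and the windows were not matched for base content. The 4 windows printed here are those of the lactate exporter Slc16a3 (chr11:120948817-120949066, plus strand), the glucose transporter Slc2a1 (chr4:119108495-119108744, plus strand), lactate dehydrogenase A, Ldha (chr7:46845554-46845803, plus strand, 1 of its 2 windows), and hexokinase 2, Hk2 (chr6:82774455-82774704, minus strand). They are shown because Slc16a3 and Slc2a1 fell in most labels between the days, Ldha in 4 of 11, and Hk2 in FAPs (Pro-remodeling), and capitals mark each match on either strand.
Slc16a3: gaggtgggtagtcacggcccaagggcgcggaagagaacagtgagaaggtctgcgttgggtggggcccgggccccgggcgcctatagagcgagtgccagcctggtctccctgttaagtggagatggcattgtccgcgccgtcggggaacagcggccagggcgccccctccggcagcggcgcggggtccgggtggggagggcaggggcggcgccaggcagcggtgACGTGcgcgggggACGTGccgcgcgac
Slc2a1: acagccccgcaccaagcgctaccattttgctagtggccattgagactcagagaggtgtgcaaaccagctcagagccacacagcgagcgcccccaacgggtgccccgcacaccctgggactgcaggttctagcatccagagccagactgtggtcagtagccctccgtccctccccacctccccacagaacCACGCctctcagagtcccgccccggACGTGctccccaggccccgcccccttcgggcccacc
Ldha: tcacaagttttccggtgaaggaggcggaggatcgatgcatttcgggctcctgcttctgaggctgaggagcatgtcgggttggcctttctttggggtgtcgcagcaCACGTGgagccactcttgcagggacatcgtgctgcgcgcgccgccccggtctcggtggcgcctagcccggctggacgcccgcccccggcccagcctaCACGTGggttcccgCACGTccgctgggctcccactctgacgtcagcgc
Hk2: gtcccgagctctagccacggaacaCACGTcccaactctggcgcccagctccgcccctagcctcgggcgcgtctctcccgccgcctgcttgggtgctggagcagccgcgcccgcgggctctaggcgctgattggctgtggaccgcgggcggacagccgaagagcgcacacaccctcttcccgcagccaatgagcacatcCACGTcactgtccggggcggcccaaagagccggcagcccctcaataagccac
Slc16a3, Slc2a1 and Hk2 held 2 matches each and this window of Ldha 5. A match is a description of the letters and not a binding site. The core also lay in windows of genes that rose or were not called, as in Pfkfb4 (1 match), Eno3 (1) and a window of Hk1 (3). A window of Pkm, which fell in 8 of 11 labels, held 0. Whether matches go with the falls was not tested.

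The window of Pgam2, the muscle phosphoglycerate mutase (chr11:5803797-5804046, minus strand), is also shown. Among members with counts in both labels, Pgam2 had the largest ratio of Myoblasts/Progenitors to MuSCs at day 7. Capitals mark the E-boxes CACCTG (here on the other strand) and CAGCTG, which occurred in 17.2% and 13.0% of all windows, and a site for MEF2, a muscle transcription factor family, which occurred in 1.69%.
Pgam2: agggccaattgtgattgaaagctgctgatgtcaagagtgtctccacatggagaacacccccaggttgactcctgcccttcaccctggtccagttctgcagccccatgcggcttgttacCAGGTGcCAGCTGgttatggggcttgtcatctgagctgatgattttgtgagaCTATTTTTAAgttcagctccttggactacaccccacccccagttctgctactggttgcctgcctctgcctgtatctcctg

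Together the 32 genes gave 136696 of the kept counts at day 2 (0.402%) and 117419 at day 7 (0.425%), but they were spread differently over the labels. Among labels with 20 or more cells, the highest shares at day 2 were in Monocyte (Patrolling) with 0.510% (95% exact binomial interval 0.502 to 0.519), Monocyte (Inflammatory) with 0.474% and M1 Macro. with 0.470%. At day 7 the fibre nuclei led, with 4.39% (4.33 to 4.46) in Myonuclei (Type IIb) and 2.93% (2.81 to 3.05) in Myonuclei (Type IIx), followed by Myoblasts/Progenitors with 1.91% (1.90 to 1.93). MuSCs at day 7 had 0.224%, close to the immune and stromal labels. FAPs (Pro-remodeling), a label of fibro/adipogenic progenitors, went from 0.423% to 0.144%, M1 Macro. from 0.470% to 0.258% and Dendritic from 0.398% to 0.191%. All intervals here and below are exact 95% intervals that cover counting error only, and no difference has a replicate check because each day had 1 library.

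**Figure D1:**
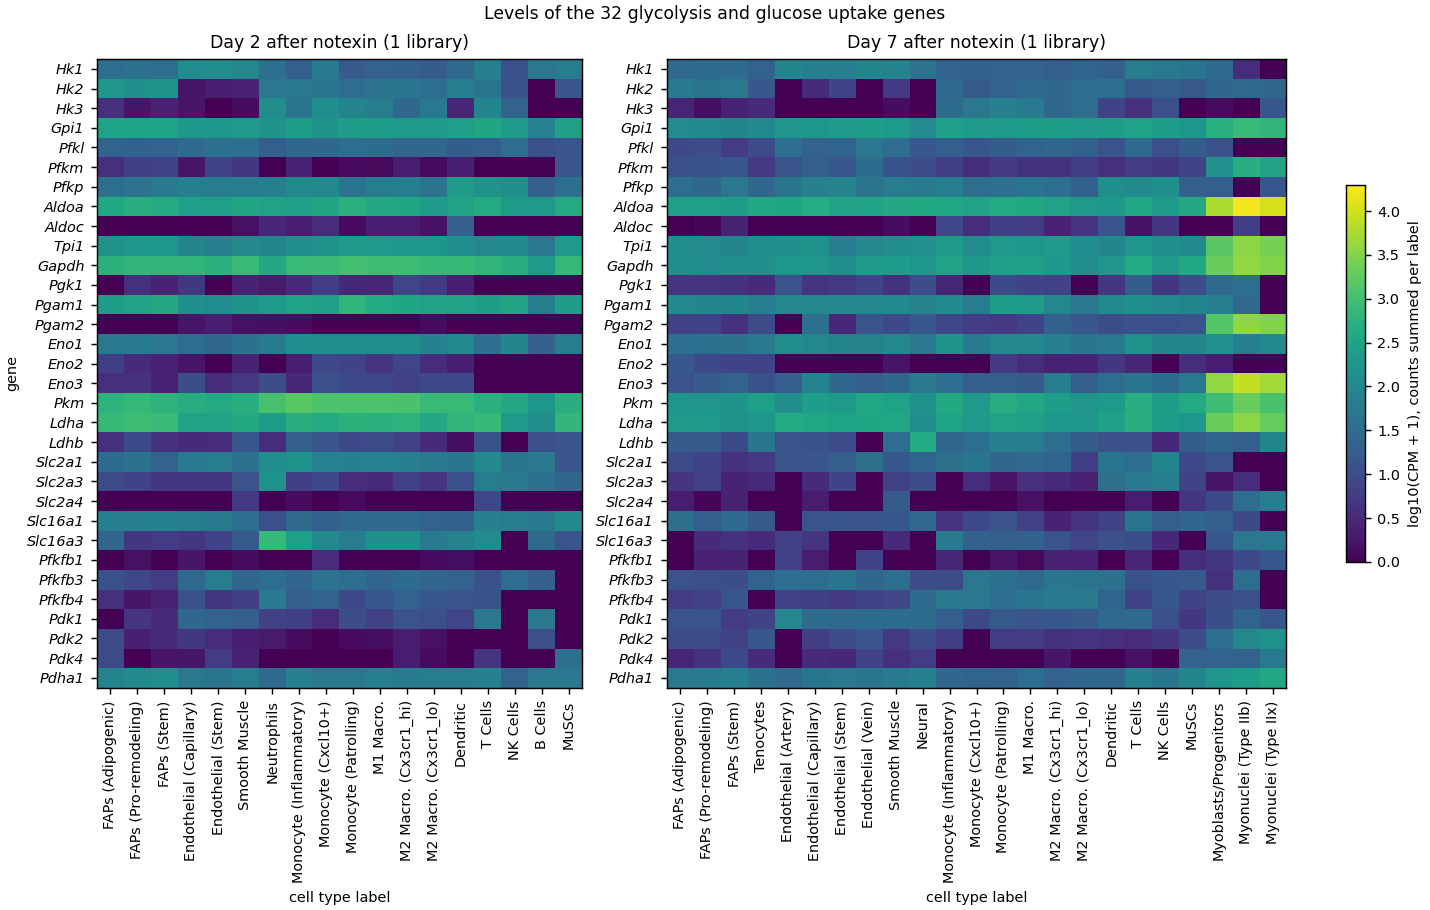
Levels of the 32 genes in every label with 20 or more cells, as log10(CPM + 1) of counts summed over the label's cells, at day 2 on the left and day 7 on the right. Aldoa, Pgam2, Eno3, Tpi1, Gapdh and Ldha are brightest in Myoblasts/Progenitors and both myonuclei labels at day 7, Slc16a3 in Neutrophils at day 2, and Pfkfb1 does not exceed 13.4 CPM in any label.

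Levels of different genes are on a scale where 3′ tags do not grow with transcript length, but capture and mapping still differ between genes. Aldoa, Gapdh, Pgk1, Pgam1 and Ldha each have 2 annotated genes named as their pseudogenes, so reads shared with a near-identical copy make their levels uncertain. Pgk1, the phosphoglycerate kinase of somatic cells (gene on chromosome X), was at most 36.9 CPM in labels of 20 or more cells, in Myonuclei (Type IIb) at day 7, and is not read further as a level.

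The first comparison followed the day 7 myogenic labels from MuSCs to Myoblasts/Progenitors. Aldoa, the muscle-type aldolase, was at 387 CPM in MuSCs (344 to 435) and 5836 in Myoblasts/Progenitors, a log2 ratio of 3.91 (3.75 to 4.09). Eno3, beta-enolase, was at 54.6 and 4029 CPM (log2 6.21, 5.76 to 6.69). Pgam2 was at 12 CPM (9 counts) and 1395 CPM (3459 counts), a 116-fold difference (log2 6.86, 5.94 to 7.99). Aldoa was already among the highest of the 32 genes in MuSCs, next to Pkm and Gapdh, whereas Eno3 and Pgam2 came from low levels. Pfkm, muscle phosphofructokinase, went from 6.66 to 150 CPM (log2 4.50, 3.26 to 6.13), Tpi1, triosephosphate isomerase, from 114 to 1559 (log2 3.77, 3.46 to 4.09), and Ldha from 184 to 2012 (log2 3.45, 3.21 to 3.71). Gapdh, the NADH-making dehydrogenase, was at 379 and 2001 CPM (log2 2.40), Gpi1, the glucose-6-phosphate isomerase, at 186 and 541 (log2 1.54), and Pkm, pyruvate kinase, at 417 and 929 (log2 1.16). Pdk2, a kinase that switches pyruvate dehydrogenase off, had 7 and 86 counts (log2 1.90, 0.79 to 3.25). Slc16a3 had 0 and 33 counts, at least 3.33-fold higher against a floor of 3 counts.

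Of the 32 genes, 26 had 20 or more counts over both labels. A gene was called higher or lower when its CPM differed 2-fold or more and the counting interval of the log2 ratio did not reach 0. By this rule 12 of the 26 were higher in Myoblasts/Progenitors and none was lower, where 8.58% of all 9284 genes tested were higher and 16.2% were lower. The median log2 ratio was 1.09 over the 26 genes and -0.40 over all genes tested. The background depended on scaling: higher calls made up 34.6% of all calls here and 78.6% with median-of-ratios scaling, where 17 members were higher and 0 lower. The 12 were the 11 named above and Pgk1 (7 and 70 counts). The enzymes that did not pass included the housekeeping partners of the muscle isozymes: Hk1 was at 46.6 and 29.4 CPM, Pgam1 at 86.5 and 68.2, Pfkp at 19.97 and 18.6, and Eno1 at 89.2 and 150.

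The Myoblasts/Progenitors label was not uniform in these genes. Aldoa had quartiles of 331, 595 and 7718 CPM over its 175 cells, and the 18 cells with most counts held 75.3% of its counts, 83.8% of those of Eno3 and 83.3% of those of Pgam2. A UMI of Pgam2 was present in 70 of the 175 cells, compared with 75 of 76 in Myonuclei (Type IIb) and 8 of 137 in MuSCs. After thinning each cell to 2000 counts these became 59 of 175, 74 of 75 and 3 of 132, in the same order. Of the 175 barcodes, all carried myogenic markers and 131 also carried 3 or more counts of 7 myofibre markers. In a comparison added after seeing the data, the label was divided at that count.

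In the 131 barcodes with myofibre transcripts (median 10794 counts) the 32 genes took 2.21% of counts, and in the other 44 (median 8141.5 counts) they took 0.267%. Aldoa was at 6803 CPM in the former and 460 in the latter, Eno3 at 4745 and 47.6, Pgam2 at 1645 and 5.29 (2 counts), Pfkm at 177 and 5.29, and Ldha at 2326 and 267. The 44 barcodes thus lay near the MuSCs values (387, 54.6, 12, 6.66 and 184 CPM in the same order). The skeletal actin Acta1, itself 1 of the 7 genes used for the division, was at 37475 and 60.8 CPM. Myog, the differentiation factor, was at 513 CPM in the 131 and 368 in the 44, Pax7, the stem cell factor, at 147 and 304, and the proliferation marker Mki67 at 9.04 and 45.0. A UMI of Myog was present in 29 of the 131 barcodes and 11 of the 44, a minority of each. Without the 131 barcodes 16 of the 32 genes could be tested against MuSCs, and 0 were called higher and 0 lower, where 2.42% of all genes tested were higher and 4.02% lower. The division itself was made on myofibre genes, and with fewer counts fewer differences can pass. Free RNA carried the same transcripts: in barcodes with 1 to 100 counts Acta1 was at 6239 CPM at day 7, compared with 107 at day 2. The part of free fibre RNA in these barcodes was not tested.

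**Figure D2:**
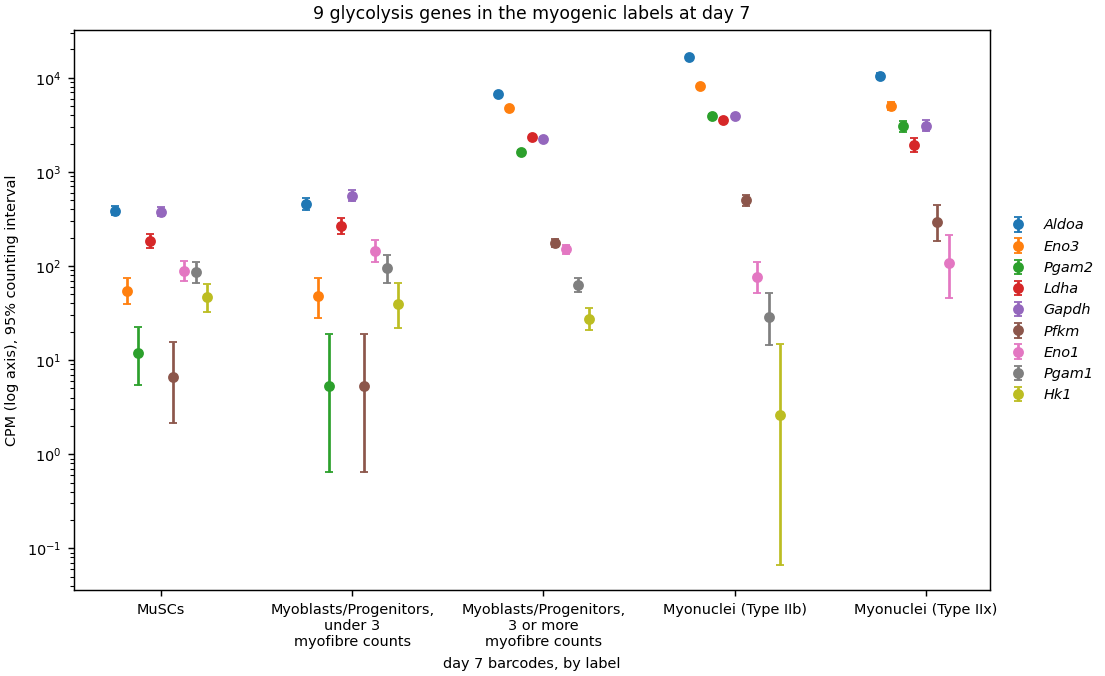
CPM on a log axis of 9 genes in the day 7 myogenic labels, with Myoblasts/Progenitors divided at 3 counts of the myofibre markers and bars for 95% counting intervals. Eno3, Pgam2 and Pfkm are near their MuSCs levels in the 44 barcodes below the division (47.6, 5.29 and 5.29 CPM) and far higher in the 131 above it (4745, 1645 and 177 CPM) and in the myonuclei. Values of 0 are not drawn.

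Myonuclei (Type IIb), the nuclei of the fastest fibres, were next compared with Myoblasts/Progenitors. Aldoa rose from 5836 to 16739 CPM (log2 1.52, 1.48 to 1.56), Pgam2 from 1395 to 3909 (log2 1.49), Eno3 from 4029 to 8087 (log2 1.01, 0.95 to 1.06) and Pfkm from 150 to 499 (log2 1.73, 1.47 to 1.98). Tpi1 reached 3582 CPM and Pkm 1976, both more than 2-fold above Myoblasts/Progenitors, while Gapdh (3957 CPM, 1.98-fold) and Ldha (3587 CPM, 1.78-fold) fell just short. Slc2a4, the insulin-regulated glucose transporter of muscle and fat, had 20 counts (8.07 CPM) in Myoblasts/Progenitors and 13 (34.3 CPM) in Type IIb (log2 2.09, 0.96 to 3.17). Pdk2 went from 34.7 to 103 CPM and Pfkfb3, a maker of fructose-2,6-bisphosphate, from 3.23 to 34.3 (8 and 13 counts). Of the genes called lower, Hk1 had 73 counts in Myoblasts/Progenitors and 1 in Type IIb (2.64 CPM, log2 -3.48, -8.80 to -0.96), and Pgam1 fell from 68.2 to 29.0 CPM. Pfkp (46 counts), Slc2a1 (30) and Pfkl (26), the platelet and liver phosphofructokinases and the widespread glucose transporter, had 0 counts in Type IIb, at least 2.34-fold, 1.53-fold and 1.33-fold lower against a floor of 3 counts, so the bounds of Slc2a1 and Pfkl did not reach 2-fold. In all, 11 of 27 genes tested were called higher and 5 lower, against 5.68% and 36% of all genes. The median log2 ratio was 0.62 over the 27 and -1.10 over all genes (-0.86 with genes at 0 set to their bound). The share of lower calls was thus below that of all genes, Pgam1 lay near the median of all genes, and the lower calls numbered 0 with stricter limits on cells and 1 against the 44 Myoblasts/Progenitors barcodes without myofibre transcripts. The fibre nuclei had few counts per barcode (median 3825.5). When counts were scaled by the median of ratios, which lowered every log2 ratio of this comparison by the median of 0.58, 4 genes were called higher and 8 lower. Higher calls then made up 33.3% of the calls on the members and 3.70% of those on all genes, compared with 68.8% and 13.6% before.

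Between both fibre types no member passed the rule in either direction, where 4.14% of the genes tested were higher in Type IIb and 3.36% lower. The label Myonuclei (Type IIx) held 20 cells, and 13 members were tested. Aldoa was at 16739 CPM in Type IIb and 10442 in Type IIx (log2 0.68, 0.57 to 0.79), Eno3 at 8087 and 5047, Ldha at 3587 and 1941 (log2 0.89, 0.64 to 1.14), and Pfkm at 499 and 295. Pdk2 was at 103 and 161 CPM (log2 -0.64, -1.61 to 0.43) and Pdha1 at 248 and 375 (log2 -0.60, -1.22 to 0.07). The median log2 ratio of the 13 was 0.36, and of all genes tested 0.01. The intervals of the glycolytic enzymes named here lay above 0 but below or across the 2-fold limit.

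Shares within an isozyme family show how its counts were split in each label, independent of the family total. They set different genes side by side, whose capture and mapping differ. Pgam1 has 2 genes named as its pseudogenes and Eno1 has the copy Eno1b, which can lower their shares. Among the hexokinases, which trap glucose in the cell, Hk1 gave 98.7% of the family counts (95.3 to 99.8) in Endothelial (Capillary) at day 2 and 97.0% at day 7. In Smooth Muscle it gave 98.2% and 94.6%. Hk2 led in the progenitors of fibrous tissue, with 77.1% (73.6 to 80.2) in FAPs (Pro-remodeling) at day 2 and 57.5% (52.8 to 62.2) at day 7. Hk3, the form of white blood cells, gave 59.6% (54.8 to 64.3) in Neutrophils, 63.0% and 62.9% in Monocyte (Patrolling) and 49.0% and 53.2% in M1 Macro. The leading hexokinase was therefore Hk1 in vessels, Hk2 in FAPs and Hk3 in Neutrophils, Monocyte (Patrolling) and M1 Macro., while in Dendritic it was Hk2 (69.1% at day 2). In T Cells, Hk1 went from 33.9% (21.8 to 47.8) to 78.3% (70.4 to 84.8) and Hk3 from 44.6% to 3.62%, and without the barcodes carrying basophil or mast cell markers day 2 had 57.1% Hk1 (34.0 to 78.2) and 14.3% Hk3 (3.05 to 36.3) of 21 counts, overlapping day 7. By level, the order was led by Hk1 in Endothelial (Stem) at 127 CPM and Endothelial (Capillary) at 121 at day 2, and these neighbours did not differ beyond counting error. Hk2 was led at day 2 by the FAPs labels, from 142 to 180 CPM, with overlapping intervals and a clear step (log2 1.02, 0.75 to 1.29) down to Dendritic at 69.8.

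Phosphofructokinase makes the committed step. Pfkp gave most of the family counts in immune cells, with 92.5% (89.9 to 94.5) and 90.5% in Dendritic, 91.0% in NK Cells at day 7 and 79.2% in Neutrophils. In Smooth Muscle it was 61.6% and 58.7%, the remainder being mostly Pfkl (34.9% and 31.1%). Pfkm gave 15.2% (5.11 to 31.9) in MuSCs, 83.8% (80.1 to 87.1) in Myoblasts/Progenitors and 189 of 189 counts (98.1 to 100) in Type IIb. Pgam2 gave 12.2%, 95.3% and 99.3% of phosphoglycerate mutase counts in the same 3 labels and 229 of 229 in Type IIx. Eno3 gave 37.3% (28.2 to 47.0), 96.4% (96.0 to 96.7) and 99.1% of enolase counts. The Myoblasts/Progenitors shares rest on the 131 barcodes with myofibre transcripts: in the other 44, Pfkm gave 2 of 27 counts of its family (7.41%, 0.910 to 24.3), Pgam2 2 of 38 (5.26%, 0.644 to 17.7) and Eno3 18 of 73 (24.7%, 15.3 to 36.1). In MuSCs the ratio of Pgam2 to Acta1 counts was 0.0464 (0.0209 to 0.0899), overlapping the 0.0420 of the day 7 free RNA, that of Pfkm was 0.0258 (0.00828 to 0.0612), overlapping 0.00875, and that of Eno3 was 0.211 (0.147 to 0.297), above 0.102. Aldoc, the brain aldolase, was a minor form, with 43 counts (20.02 CPM) in Dendritic at day 2, ahead of the next label by a log2 of 2.98 (0.43 to 8.32).

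**Figure D3:**
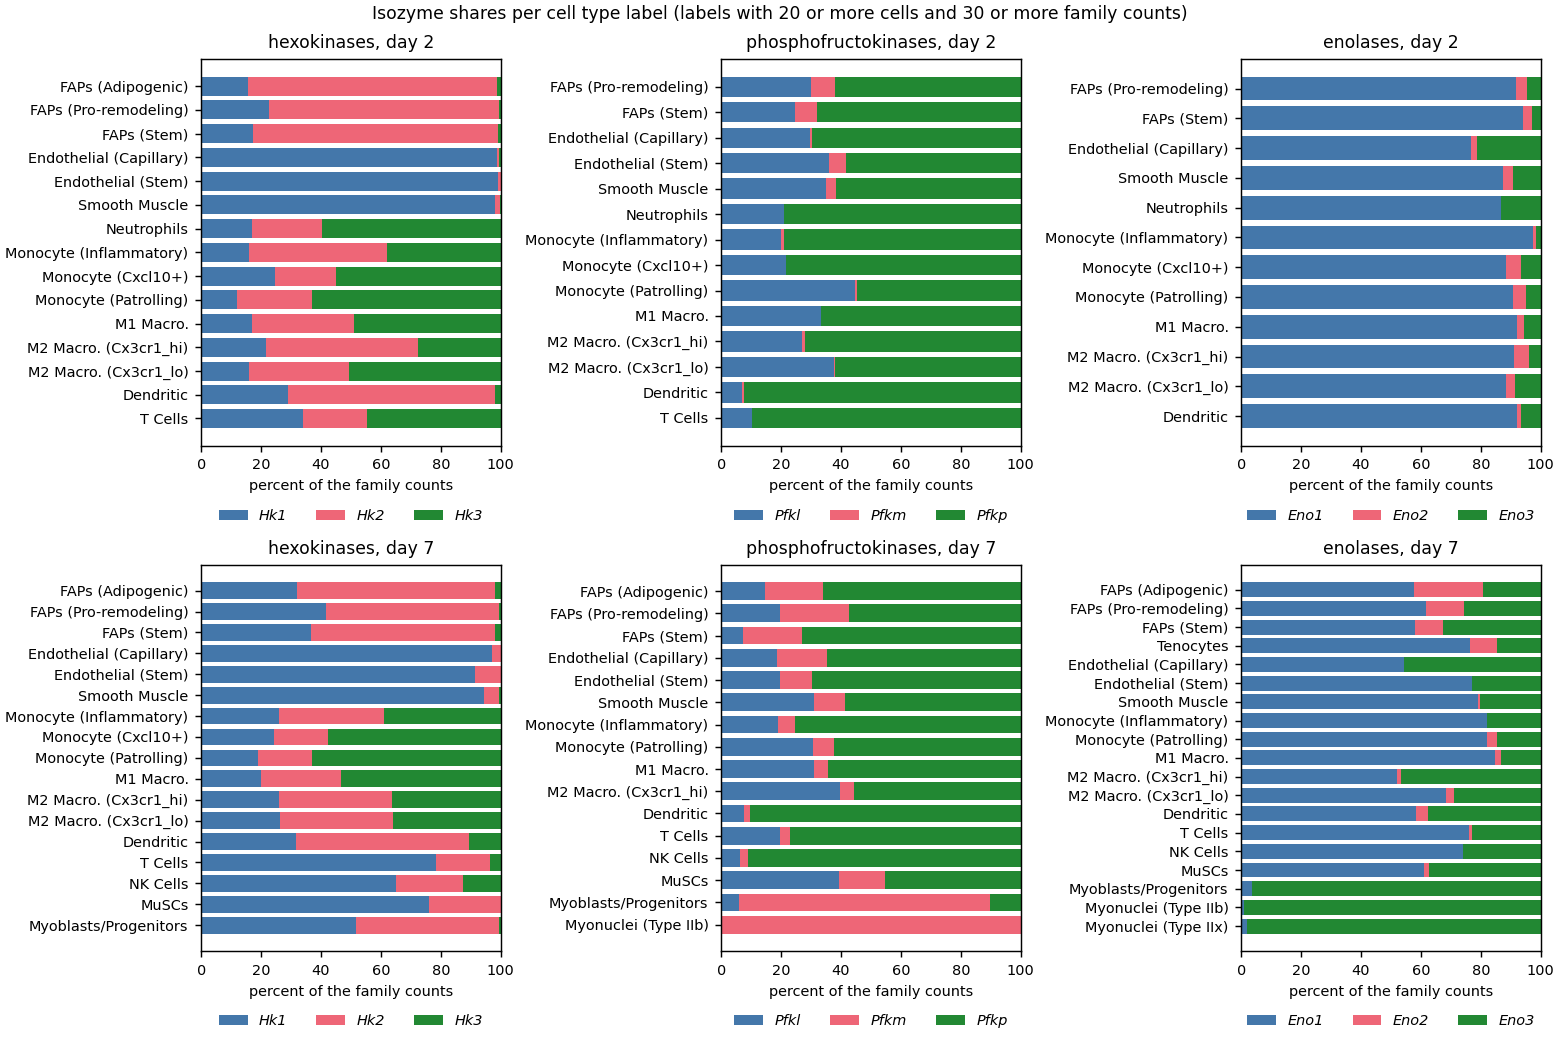
Percent of family counts from each isozyme (hexokinases, phosphofructokinases, enolases) per label with 20 or more cells and 30 or more family counts, day 2 above and day 7 below. Hk1 fills the endothelial and Smooth Muscle bars, Hk2 leads in FAPs and Hk3 in Neutrophils, Monocyte (Patrolling) and M1 Macro., while Pfkm and Eno3 fill the bars of the myonuclei.

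Lactate dehydrogenase B (Ldhb), the form that favours lactate use, gave a small share of the family in most labels. The exception was Neural at day 7 (41 cells), a label of nerve-associated cells, where Ldhb was at 443 CPM (358 to 541) and Ldha at 131, so that Ldhb made up 77.2% (68.8 to 84.3). The next label, Myonuclei (Type IIx), was at 93.7 CPM, lower by a log2 of 2.24 (1.14 to 3.59). Ldhb rose in 4 of the 7 labels where it could be tested. In M1 Macro. it went from 8.86 to 64.4 CPM (log2 2.86, 2.44 to 3.30) and from 1.65% to 18.5% of the family, and in Monocyte (Patrolling) from 7.92 to 72.6 CPM (log2 3.20, 2.52 to 3.93). M2 Macro. (Cx3cr1_hi) went from 5 to 41 counts (log2 2.54) and Smooth Muscle from 13.1 to 34.0 CPM (log2 1.37). Ldha fell in 4 of 11 labels, from 934 to 202 CPM in FAPs (Pro-remodeling) (log2 -2.21, -2.30 to -2.11), and by less in Dendritic and both M2 labels.

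Slc16a3 exports lactate from glycolytic cells. It was at 761 CPM in Neutrophils at day 2 (723 to 801), ahead of Monocyte (Inflammatory) at 265 by a log2 of 1.52 (1.39 to 1.65), with M1 Macro. at 144 and M2 Macro. (Cx3cr1_hi) at 143 next and not different from each other. A UMI was found in 499 of 708 Neutrophils (70.5%, median 2351 counts per cell) and in 5 of 159 Endothelial (Capillary) cells (3.14%, median 6992 counts). With every cell thinned to 2000 counts these were 346 of 537 (64.4%) and 0 of 155. At that depth 0 of 155 allows up to 1.94% of cells with a UMI and limits only detection, and the endothelial share of 3.14% at full depth serves as the background. Slc16a3 gave 98.7% of the counts of both monocarboxylate transporters in Neutrophils, 89.9% in Monocyte (Inflammatory) and 82.1% in M1 Macro. at day 2, but 4.80% in FAPs (Pro-remodeling), where Slc16a1 was at 73.6 CPM. Myeloid cells and FAPs therefore differed in which transporter they carried.

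Both transporters fell widely by day 7. Slc16a3 fell in 8 of 9 labels tested, for example from 144 to 21.0 CPM in M1 Macro. (log2 -2.78, -3.15 to -2.43), from 265 to 55.7 in Monocyte (Inflammatory) (log2 -2.25) and from 143 to 12.2 in M2 Macro. (Cx3cr1_hi) (log2 -3.55, -4.43 to -2.77). The remaining label, FAPs (Pro-remodeling), had 13 counts at each day. Slc16a1 fell in 10 of 11 labels, with a median log2 ratio of -2.15, as in Endothelial (Capillary) from 63.1 to 12.4 CPM and FAPs (Pro-remodeling) from 73.6 to 18.3. In T Cells it was at 73.4 and 45.5 CPM (log2 -0.69, -1.42 to 0.10).

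Slc2a1, the basal glucose transporter of most cells, fell in 10 of 11 labels (T Cells among them only with the basophil or mast cell barcodes), with a median log2 ratio of -1.68. It went from 159 to 37.7 CPM in Monocyte (Inflammatory) (log2 -2.07, -2.78 to -1.44), from 58.2 to 12.4 in Endothelial (Capillary) and from 39.6 to 6.28 in FAPs (Pro-remodeling) (log2 -2.66). The exception was Dendritic, at 48.4 and 45.2 CPM (log2 -0.10, -0.63 to 0.41). Slc2a3, the high-affinity transporter of neurons and white blood cells, was led at day 2 by Neutrophils at 158 CPM, where it gave 54.6% (50.4 to 58.8) of the 3 glucose transporters. It was led at day 7 by NK Cells at 69.2 and T Cells at 57.2, whose intervals overlapped. Slc2a3 rose in Dendritic from 10.2 to 37.5 CPM (log2 1.87, 1.08 to 2.70) and fell in Smooth Muscle from 12.1 to 5.90. Slc2a4 rose in Smooth Muscle from 4.31 to 17.0 CPM (22 and 46 counts, log2 1.98, 1.22 to 2.78), where its share of the 3 transporters went from 7.43% to 46.0% (36.0 to 56.3). At full depth a UMI of Slc2a4 was present in 22 of 304 and 35 of 232 of those cells (7.24% and 15.1%), compared with 0 of 159 and 1 of 149 in Endothelial (Capillary), and after thinning in 5 of 302 and 9 of 223. Free RNA held 0 counts of Slc2a4 at day 2 and 26 (5.24 CPM) at day 7. The summed myofibre genes in Smooth Muscle were at 45.4 and 633 CPM, and their part in the Slc2a4 rise was not tested. In the Smooth Muscle barcodes with smooth muscle or pericyte markers the log2 ratio was 2.13.

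**Figure D4:**
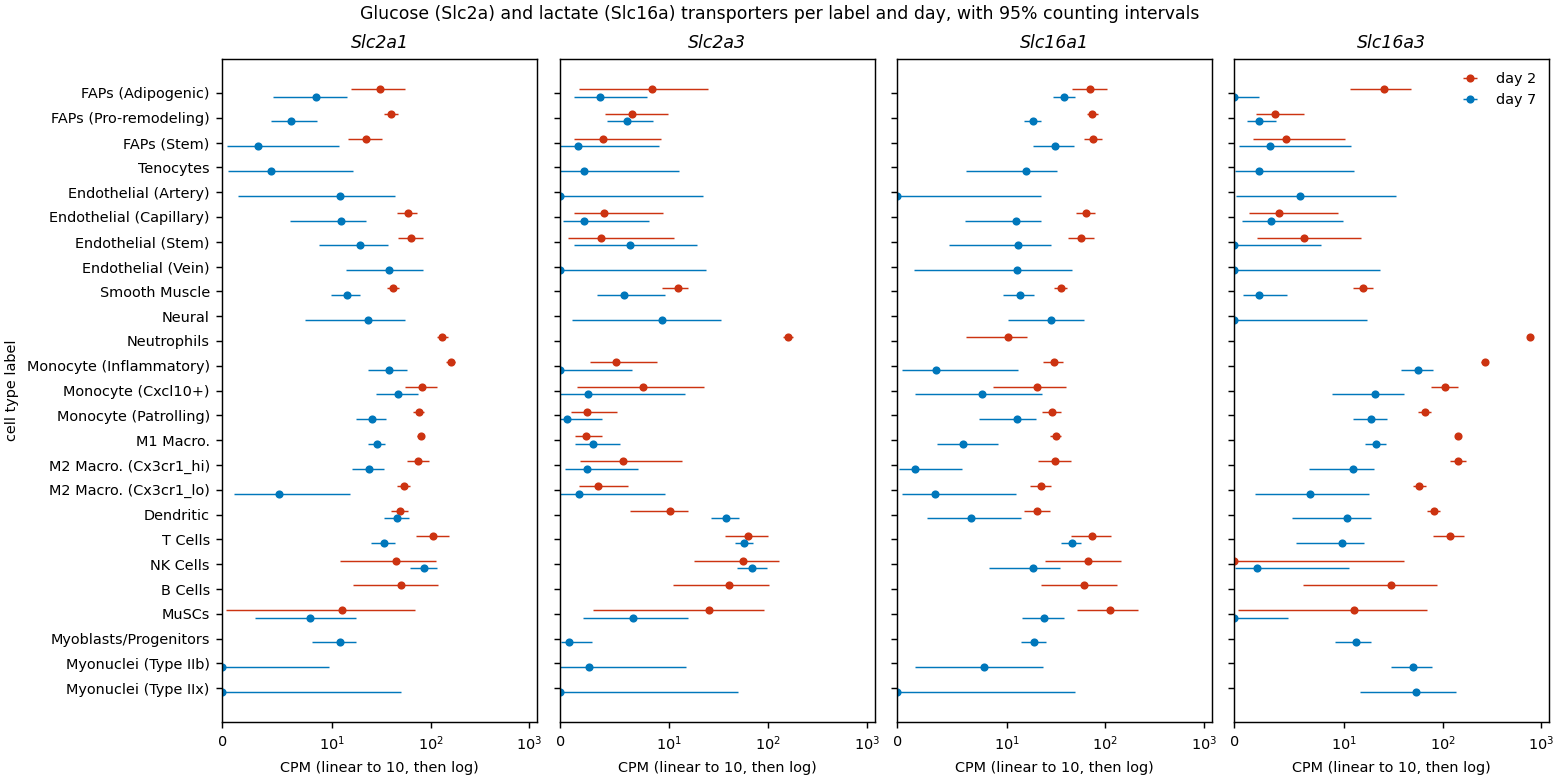
CPM with 95% counting intervals of Slc2a1, Slc2a3, Slc16a1 and Slc16a3 per label at day 2 (red) and day 7 (blue), on an axis that is linear to 10 and logarithmic above. Slc16a3 in Neutrophils at day 2 (761 CPM) lies to the right of all other points, and the day 7 points of Slc2a1 and Slc16a1 lie left of the day 2 points in nearly all labels drawn at both days.

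Pfkfb3 and Pfkfb4 raise or lower fructose-2,6-bisphosphate, the activator of phosphofructokinase. Pfkfb4 rose in 6 of 8 labels tested, with a median log2 ratio of 1.63. It went from 14.5 to 47.3 CPM in M1 Macro. (log2 1.71, 1.34 to 2.09), from 13.6 to 57.1 in M2 Macro. (Cx3cr1_lo) (log2 2.07) and from 7.56 to 34.2 in Monocyte (Patrolling) (log2 2.18, 1.41 to 2.99). Neutrophils at day 2 were at 60.6 CPM. Pfkfb3 was called in 1 of 11 labels only, lower in Monocyte (Inflammatory) with 62 and 5 counts. The share of Pfkfb4 in the family therefore went from 37.7% (31.8 to 43.9) to 61.2% (55.0 to 67.2) in M1 Macro. and from 18.1% to 45.0% in Monocyte (Patrolling). Pfkfb1, the liver and muscle form, had 7 counts at day 2 and 19 at day 7 over the 11 labels and was not tested.

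At the exit of glycolysis, Pdha1 encodes a catalytic subunit of pyruvate dehydrogenase and the Pdk genes its inhibitory kinases. Pdha1 fell in 5 of 11 labels, all of them myeloid or dendritic, as from 73.4 to 25.2 CPM in Monocyte (Inflammatory) (log2 -1.55, -2.44 to -0.76). M1 Macro., at 69.3 and 34.7 CPM, was just outside the rule. Pdk1 rose in 4 of 11 labels: Dendritic (6.98 to 28.9 CPM), FAPs (Pro-remodeling) (3.42 to 12.1), Monocyte (Inflammatory) (5.16 to 17.97) and M1 Macro. (5.76 to 12.9). Pdk2 rose in both labels tested. FAPs (Pro-remodeling) had 5 and 54 counts, and M1 Macro. had 3 and 17 counts (log2 3.52, 1.73 to 5.93). Over the 11 labels Pdk2 had 26 counts at day 2 and 115 at day 7. Both labels reached the minimum of counts mostly through day 7, so a rise in both does not test the direction across labels. In Myoblasts/Progenitors and Type IIb Pdk2 was the leading kinase gene, with 52.1% (44.2 to 59.9) and 69.6% (55.9 to 81.2) of the family, whereas Pdk1 gave 81.1% in Smooth Muscle and 90.7% in T Cells at day 7. Pdk4 had 16 and 32 counts over the 11 labels at days 2 and 7 and could not be tested there, and was at 21.3 CPM in MuSCs and 22.2 in Myoblasts/Progenitors at day 7.

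Across the enzymes of the pathway, the widest falls between the days were at Gapdh, Pkm and Pgam1, all steps after aldolase. Gapdh fell in 10 of 11 labels, with a median log2 ratio of -1.87, for example from 932 to 274 CPM in M1 Macro. (log2 -1.76, -1.86 to -1.66), from 696 to 116 in FAPs (Pro-remodeling) (log2 -2.58) and from 661 to 186 in Endothelial (Capillary) (log2 -1.83). T Cells, at 642 and 439 CPM, did not pass. Pkm fell in 8 of 11 labels (median log2 -1.69), from 1505 to 411 CPM in Monocyte (Inflammatory) and from 1223 to 379 in M1 Macro. Pgam1 fell in 6 of 11 (median log2 -1.33). The neighbouring steps behaved differently: Aldoa, Tpi1 and Hk1 were called in 0 of 11 labels, and Gpi1 was called only in FAPs (Pro-remodeling), where it fell from 306 to 112 CPM. In M1 Macro., for example, Aldoa was at 395 and 414 CPM, Tpi1 at 200 and 180 and Gpi1 at 246 and 250, beside the fall of Gapdh and Pkm. Pfkl and Pfkp were each called once, Pfkl lower in FAPs (Pro-remodeling) (20.5 to 9.34 CPM) and Pfkp lower in M2 Macro. (Cx3cr1_lo) (42.2 to 20.8). Free RNA also moved: in barcodes with 1 to 100 counts, Aldoa was at 236 CPM at day 2 and 1992 at day 7 and Tpi1 at 71.4 and 366, whereas Gapdh was at 225 and 343 and Pkm at 444 and 389. The part of free RNA in the flat Aldoa and Tpi1 values was not tested.

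Eno1, alpha-enolase, changed in opposite directions. It rose in T Cells (36.7 to 158 CPM, log2 2.11, 1.20 to 3.18), Endothelial (Stem) (27.9 to 86.0), Endothelial (Capillary) (34.8 to 100, log2 1.53) and Smooth Muscle (39.2 to 99.6, log2 1.35, 1.08 to 1.62), and fell in Dendritic (111 to 53.9, log2 -1.04, -1.49 to -0.62). Eno1 has a retrocopy, Eno1b, that can take part of its reads. Hk2 fell in FAPs (Pro-remodeling) from 142 to 43.5 CPM (log2 -1.71, -1.93 to -1.48) and in T Cells from 44.0 to 15.4 (not called without the basophil or mast cell barcodes), and had 8 and 12 counts in Smooth Muscle (1.57 and 4.43 CPM, log2 1.5, 0.09 to 3.0), a rise that turned negative when cells were weighted equally. Hk3 fell in T Cells only, from 25 to 5 counts (log2 -4.90), and was not called without those barcodes, with 3 counts left at day 2. It was at 61.9 and 59.6 CPM in M1 Macro. and 84.6 and 74.7 in Monocyte (Patrolling). Aldoc rose in M1 Macro. (9 and 15 counts) and Eno2, gamma-enolase, in FAPs (Pro-remodeling) (8 and 49 counts, log2 1.87, 0.78 to 3.16). Pgk1 was called in M1 Macro. (13 and 22 counts) and T Cells (0 and 29, at least 1.62-fold higher, a bound below 2-fold).

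**Figure D5:**
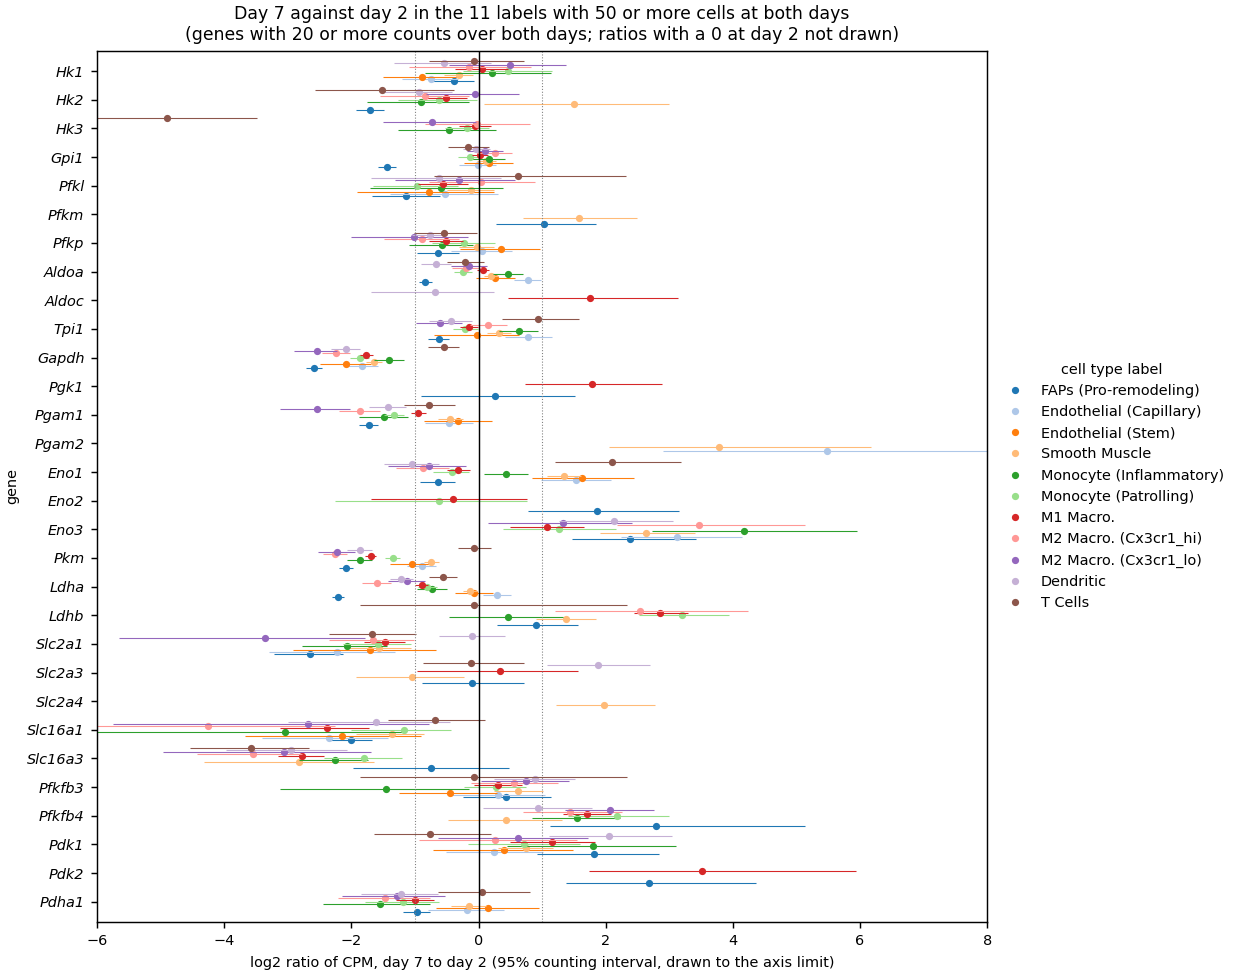
Log2 ratio of CPM, day 7 to day 2, with 95% counting intervals for each gene and label with 20 or more counts over both days, in the 11 labels. Points of Gapdh, Pkm, Slc2a1, Slc16a1 and Slc16a3 lie left of 0 in all labels tested, those of Eno3 and Pfkfb4 lie right of it, and those of Gpi1, Aldoa and Tpi1 scatter around it. The dotted lines mark 2-fold.

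The muscle isozymes were higher at day 7 than at day 2 in the pooled labels outside the muscle lineage. Eno3 went from 5.86 to 26.7 CPM there (199 and 639 counts) and Pfkm from 2.00 to 8.15 (68 and 195 counts), so both were present at day 2. Pgam2 had 8 and 215 counts. Eno3 was called higher in 10 of 10 labels tested, as in Endothelial (Capillary) from 9.71 to 84.5 CPM (log2 3.12, 2.23 to 4.14) and M2 Macro. (Cx3cr1_hi) from 5.76 to 63.6. Pgam2 was called higher in 5 of 5, as in Endothelial (Capillary) with 1 and 32 counts (log2 5.48, 2.90 to 10.83) and FAPs (Pro-remodeling) with 0 and 38 counts, at least 7.54-fold higher against a floor of 3 counts. Pfkm was called higher in FAPs (Pro-remodeling) (5.42 to 11.04 CPM) and Smooth Muscle (3.72 to 11.1). The 9 myofibre genes rose in the same labels: every one that could be tested (6 to 8 of 9) was called higher in each of the 11. Their summed level ranged over those labels from 9.41 to 100.3 CPM at day 2 and from 494 to 3210 at day 7, both highest in Endothelial (Capillary). Over all labels outside the muscle lineage at day 7, Pgam2 had 215 counts beside 5502 of Acta1, a ratio of 0.0391 (0.0339 to 0.0448). In the day 7 barcodes with 1 to 100 counts the ratio was 0.0420 (0.0397 to 0.0444). For Eno3 the ratios were 0.116 (0.107 to 0.126) and 0.102 (0.0988 to 0.106), and for Pfkm 0.0354 and 0.00875. Pooled over labels at day 7, the Pgam2 to Acta1 ratio thus overlapped that of the free RNA, while those of Eno3 and Pfkm were higher. At day 2 the pooled Eno3 ratio was 0.985 (0.806 to 1.20), compared with 0.189 (0.142 to 0.249) in free RNA. That of Pfkm was 0.337 (0.252 to 0.445) against 0.0640 (0.0391 to 0.0995). Pgam2, with 8 counts, was at 0.0396 (0.0169 to 0.0795) against 0.0823 (0.0534 to 0.122). Of the 19 labels outside the muscle lineage, the Eno3 ratio overlapped that of the free RNA in 14, was above it in 4 and below it in 1. It was 0.109 (0.0848 to 0.139) in Endothelial (Capillary), 0.121 (0.0948 to 0.154) in M2 Macro. (Cx3cr1_hi) and 0.0818 (0.0608 to 0.108) in M1 Macro., which overlapped. Those above were Dendritic at 0.25 (0.168 to 0.362), Monocyte (Inflammatory) at 0.215 (0.126 to 0.351), T Cells at 0.166 (0.129 to 0.211) and Smooth Muscle at 0.154 (0.118 to 0.199), and FAPs (Adipogenic) was below at 0.0604 (0.0364 to 0.0948). With the authors' free RNA correction (SoupX), Eno3 changed sign in 4 of its labels and Pgam2 in Smooth Muscle.

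Label by label, the calls on the 32 genes were read against those on all genes. In FAPs (Pro-remodeling) 7 of 27 genes tested were higher (24.7% of all genes) and 9 lower (13.5%), with a median log2 ratio of -0.64 against 0.22 over all genes. In Dendritic 3 of 22 were higher (12.4%) and 8 lower (7.42%), with medians of -0.67 and 0.05. In M2 Macro. (Cx3cr1_lo) 2 of 21 were higher (11.4%) and 9 lower (14.7%), with medians of -0.73 and -0.20. In M2 Macro. (Cx3cr1_hi) 4 of 23 were higher (12.5%) and 8 lower (14.8%), with medians of -0.19 and -0.14. In Monocyte (Inflammatory) 3 of 22 were higher (11.6%) and 8 lower (14%), with medians of -0.58 and -0.14. In Monocyte (Patrolling) 3 of 23 were higher (13.3%) and 7 lower (14.3%), with medians of -0.42 and -0.16. The share of lower calls was above that of all genes in each of these 6 labels, farthest in Dendritic and M2 Macro. (Cx3cr1_lo). With median-of-ratios scaling the share of higher among all calls on all genes went from 64.6% to 76.7% in FAPs (Pro-remodeling), from 45.9% to 76.1% in M2 Macro. (Cx3cr1_hi), from 48.1% to 60.4% in Monocyte (Patrolling) and from 54.1% to 67.1% in M1 Macro., while in these 4 labels the calls on the 32 genes were the same in number except in FAPs (Pro-remodeling), with 8 higher and 8 lower.

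In the other 5 labels the share of lower calls was also above that of all genes, but by less. In M1 Macro. 8 of 28 were higher (16.4% of all genes) and 5 lower (13.9%), with medians of -0.10 and -0.09. In Smooth Muscle 7 of 25 were higher (13.5%) and 5 lower (7.35%), with medians of 0.12 and 0.10, and with only the barcodes that carried smooth muscle or pericyte markers (209 and 152) these counts were 5 and 4. In T Cells 3 of 23 were higher (8.03%) and 4 lower (7.44%), with medians of -0.16 and 0.09, and without the barcodes carrying basophil or mast cell markers (33 left at day 2) they were 2 and 3, of which Eno1, Eno3 and Slc16a3 were shared. In Endothelial (Capillary) 3 of 18 were higher (12.3%) and 3 lower (9.99%), with a median of 0.02 against 0.01. In Endothelial (Stem) 1 of 16 was higher (12.4%) and 4 lower (11.4%), with a median of -0.19. Genes with fewer than 20 counts over both days were not tested, from 4 of the 32 in M1 Macro. to 16 in Endothelial (Stem).

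Neighbouring pathways were counted from fixed lists, to be read against the same shares of all genes (8.58% higher and 16.2% lower for Myoblasts/Progenitors, 5.68% and 36% for Type IIb). In Myoblasts/Progenitors against MuSCs, 11 of 16 tricarboxylic acid cycle genes were called higher and 0 lower (median log2 1.24), from Suclg2 at -0.59 to Idh3a at 3.37. Of the cytosolic redox shuttle genes 5 of 7 were higher (median 1.93), led by the glycerol-3-phosphate dehydrogenase Gpd1 at 4.28, with Gpd2 lowest at -0.89. Of the mitochondrial pyruvate entry genes 5 of 8 were higher, from Pdp1 at 0.16 to the pyruvate carrier subunit Mpc1 at 2.55. Of the glycogen genes 8 of 14 were higher and 1 lower, from the lysosomal glucosidase Gaa at -1.21 to Pgm2 at 5.43. The pentose phosphate pathway, by contrast, had 0 higher and 1 lower of 7, from H6pd at -1.18 to Pgd at 0.69. In Type IIb against Myoblasts/Progenitors, 8 of 13 glycogen genes were higher, led by Ppp1r3c at 2.20 with Pgm1 lowest at -2.34, and 1 of 16 tricarboxylic acid cycle genes, Idh3a at 1.04. The counts against MuSCs include the 131 barcodes with myofibre transcripts.

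In FAPs (Pro-remodeling), where 24.7% of all genes were higher and 13.5% lower between the days, 4 of 8 pentose phosphate genes were lower (median -1.17, lowest Tkt at -1.81, highest Pgls at 0.29) and 5 of 16 tricarboxylic acid cycle genes lower (median -0.83, from Idh3a at -1.74 to Idh3b at -0.22), whereas 4 of 14 glycogen genes were higher and 0 lower (median 0.56, from Pgm1 at -0.95 to Gaa at 2.05). M2 Macro. (Cx3cr1_lo) had 7 of 16 tricarboxylic acid cycle genes lower against 14.7% of all genes (median -0.90, from Idh3a at -1.97 to Idh3g at 0.30). In the list of the HIF pathway and its classical targets outside glycolysis, 7 of 17 were lower and 2 higher in FAPs (Pro-remodeling), from Mif at -3.04 to P4ha2 at 1.14, and 4 of 16 lower and 2 higher in M1 Macro., against 13.9% and 16.4% of all genes there, from Hif1a at -2.34 to Car9 at 1.20. In M2 Macro. (Cx3cr1_hi) 6 of 12 were lower and 0 higher (median -0.87), against 14.8% and 12.5% of all genes. Gluconeogenesis had few counts, but its gene Pck2, a mitochondrial phosphoenolpyruvate carboxykinase, was higher in 7 of 9 labels tested, from a log2 of 1.04 in Smooth Muscle to 3.86 in Monocyte (Patrolling), with 0 and 31 counts in M2 Macro. (Cx3cr1_hi), at least 7.31-fold higher against a floor of 3 counts. Among isozymes outside the 32 genes, the transporter Slc2a8 was higher in 4 of 5 labels tested, from a log2 of 1.54 in Monocyte (Patrolling) to 2.19 in FAPs (Pro-remodeling).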

How the data were processed

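The authors aligned 10x Chromium v3 reads to mm10 with Cell Ranger (3.1.0 in the submitters' processing notes, 3.0.1 in a file header). They deposited raw counts per gene and barcode, a cell table with labels made with Seurat 3.1.5, and estimated counts after SoupX removal of free RNA. The count matrices as deposited gave the main values, and the SoupX estimated counts an alternative. Per the study's methods, doublets had been removed with DoubletFinder before annotation, and no caller was run here. Kept cells had a label, 750 or more genes, 1000 or more transcripts and at most 30% mitochondrial counts in the SoupX values. Counts were summed per label and day, in labels with 50 or more cells on both days for day ratios and 20 or more for levels. Ratios used exact conditional binomial intervals, levels exact Poisson and shares Clopper-Pearson intervals (95%), in Python 3.11.15 with numpy 2.4.6, scipy 1.17.1 and pandas 2.3.3 (figures with matplotlib 3.10.9). UMIs remove PCR copies, and the intervals cover counting error only. With 1 library per day no test was possible. Floors are 3 counts. Genes with 20 or more counts over both groups were tested against the 2-fold rule. Free RNA was read from barcodes with 1 to 100 counts.

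All 32 genes are named. Of the lists, calls are given for selected lists and comparisons, in most with the genes of the largest and smallest ratio. The genes and lists were chosen with earlier results of these data known. Promoter windows came from RefSeq (GRCm38.p6) and gene spans and pseudogene names from GENCODE. The T cell marker Trac and the B cell marker Ighm are not in the deposited gene list. The scripts were tested on simulated data. Alternatives were SoupX values, stricter or no limits on cells, another scaling, totals without mitochondrial genes, means over cells, a minimum of 100 counts, a fold of 1.5, added isozymes, and 3 subsets of barcodes chosen after seeing the data.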

Additional observations from a re-analysis of the deposited data

Results flagged for a closer look

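In 3 genes the day 7 to day 2 ratio was called higher in 1 or more labels and lower in 1 or more others, and the difference between the labels was not tested. Hk2 was called lower in 2 labels and Eno1 higher in 4, and the most extreme ratio each way is given here. Hk2 had a log2 ratio of 1.5 in Smooth Muscle, from 8 and 12 counts, and -1.71 in FAPs (Pro-remodeling). Eno1 had a log2 ratio of 2.11 in T Cells and -1.04 in Dendritic. Slc2a3 had a log2 ratio of 1.87 in Dendritic and -1.04 in Smooth Muscle. The Smooth Muscle calls of Hk2 and Slc2a3 were lost in the barcodes with smooth muscle or pericyte markers.

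Barcodes outside the comparisons also carried these genes. In called barcodes that met the limits on cells but were absent from the authors' table, the 32 genes took 0.400% of counts at day 2 (680 barcodes) and 0.273% at day 7 (477 barcodes). In barcodes with 1 to 100 counts, which hold mostly free RNA, they took 0.191% at day 2 and 0.524% at day 7. At day 7 the free RNA share was above the 0.425% of the kept cells.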

How the results depend on the processing

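No paired analysis was possible because each day had 1 library, and no replicate could be left out. With SoupX values the log2 ratio of Eno3 turned to -3.31 in FAPs (Pro-remodeling), -1.58 in M1 Macro., -0.20 in M2 Macro. (Cx3cr1_lo) and -1.62 in Monocyte (Patrolling), that of Pgam2 to -0.13 in Smooth Muscle, and higher calls fell to 4 in FAPs (Pro-remodeling) and 1 in M2 Macro. (Cx3cr1_lo). With means over cells Hk2 in Smooth Muscle turned to -0.27 and M1 Macro. had 8 lower calls. Without the 131 Myoblasts/Progenitors barcodes carrying myofibre transcripts, against MuSCs Gpi1 turned to -0.23, Pfkm to -0.33, Pgam2 to -1.18, Eno3 to -0.20 and Pdk2 to -0.23, with 0 higher calls, and Type IIb had 1 lower call against the remaining 44. Stricter limits on cells left 1 higher call in M2 Macro. (Cx3cr1_lo) and 0 lower in Type IIb against Myoblasts/Progenitors, and median-of-ratios scaling gave 4 higher and 8 lower there (33.3% of member calls higher, against 3.70% of all calls). With 100 or more counts, where fewer genes were tested, the counts of higher and lower calls were: 1 and 1 in Endothelial (Capillary), 0 and 2 in Endothelial (Stem), 0 and 5 in M2 Macro. (Cx3cr1_hi), 2 and 3 in Smooth Muscle, 1 and 0 in T Cells, 7 and 1 in Type IIb against Myoblasts/Progenitors. Higher calls alone moved to 0 in Dendritic, M2 Macro. (Cx3cr1_lo) and Monocyte (Inflammatory), 1 in FAPs (Pro-remodeling) and Monocyte (Patrolling), and 3 in M1 Macro. A fold of 1.5 gave 5 higher in Dendritic, 5 and 5 in Endothelial (Capillary), 14 lower in FAPs (Pro-remodeling), 8 lower in M1 Macro. and 1 lower in Myoblasts/Progenitors against MuSCs. Except for fewer genes, fewer cells or a lower limit, the cause of these moves was not tested. Median-of-ratios scaling took away a median log2 ratio, and so raised all ratios by its size, of -0.42 in M2 Macro. (Cx3cr1_hi), -0.25 in FAPs (Pro-remodeling), -0.18 in M1 Macro., -0.17 in Monocyte (Patrolling), -0.11 in T Cells and -0.51 in Myoblasts/Progenitors against MuSCs. Including all labelled barcodes, or leaving mitochondrial genes out of the totals, moved none of the 26 counts of calls past 1.5 times. Of 726 isozyme shares, 78 left their counting interval with added isozymes and 61 with SoupX values. Means over cells moved 45, stricter limits on cells 39, and all labelled barcodes 2.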
